A study of Homo sapiens with 3 samples.

Results

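The genes described here code for the proteins of the mitochondrial ribosome, and they were chosen as the genes whose symbol matches MRPL or MRPS followed by a number. The rule found 81 of the 36601 genes in the count matrix, of which 78 are protein-coding and 3 are long noncoding RNAs named after a neighbouring member (MRPL20-AS1, MRPL23-AS1 and MRPS30-DT). By the known structure of the ribosome, 51 members belong to the large subunit and 26 to the small subunit. MRPS30 and MRPS18A carry the letter of the small subunit but sit in the large one, and MRPS36 has been reassigned from the ribosome to the 2-oxoglutarate dehydrogenase complex, so it was counted with neither. The cells were OVCAR3, an established line of human high-grade serous ovarian cancer (HGSOC) cells, cultured for 48 hours with DMSO vehicle, with 50 μM of the RAC1 inhibitor NSC23766 (RAC1i), or with 50 μM RAC1i together with 5 μM of the EZH2 inhibitor GSK126 (Combo). RAC1 is a small GTPase that controls the actin cytoskeleton, and EZH2 is a histone methyltransferase that silences genes. The study asked how these inhibitors, alone and together, alter subpopulations of ovarian cancer cells. Each condition was 1 library of single cells from 1 cell line, so conditions could not be tested against each other, and cells given EZH2i alone were not analysed here.

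Mitochondrial ribosomes translate the few mRNAs that mitochondrial DNA still encodes, which give core subunits of the respiratory chain and of the ATP synthase. Their RNAs come from mitochondrial DNA, but every one of their proteins is encoded in the nucleus, made on cytosolic ribosomes and imported. The small subunit binds and decodes the mRNA, the large subunit joins the amino acids, and beside proteins inherited from the bacterial ribosome both hold many that were added in mitochondria.

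The 3 libraries held 7531 (DMSO), 10215 (RAC1i) and 8239 (Combo) kept cells and 199063947 to 234969742 unique molecular identifiers (UMIs, each marking 1 captured mRNA molecule). Levels are UMIs of a gene per 1000000 UMIs of the library (CPM), and intervals in parentheses are exact 95% intervals that cover counting error only. The median cell held 26750 UMIs in DMSO, 20989 under RAC1i and 24953 under Combo, and the median mitochondrial share of UMIs was 5.60%, 1.66% and 1.58%. Any pair of libraries shared 29 or 30 cell barcodes, at most 0.307% of a library. Of the 7 epithelial and ovarian markers, EPCAM, KRT8, KRT18 and KRT19 were at 225 to 924 CPM in every library, while PAX8, at 355 CPM in DMSO, was at 54.3 under RAC1i and 47.8 under Combo, and MUC16 and WT1 were also lower there. Of 6 markers of other cells, COL1A1 of fibroblasts was at 5.51 to 5.69 CPM and the other 5 were at most at 1.49 CPM, with PTPRC of leukocytes at no more than 5 UMIs in a library. RAC1 mRNA was at 462, 590 and 577 CPM and EZH2 mRNA at 32.1, 12.4 and 15.2 CPM in DMSO, RAC1i and Combo. The inhibitors act on the proteins, so these levels do not check the labels.

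The members together made up 0.991% of all UMIs in DMSO, 1.18% under RAC1i and 1.21% under Combo. Their summed level was 9914 CPM in DMSO treated cells, 11834 under RAC1i and 12108 under Combo. In a library of bulk sums, fewer cells with a gene and fewer mRNA molecules per cell cannot be told apart. The median protein-coding member was at 92.2 CPM in DMSO, 106 under RAC1i and 102 under Combo, with a range in DMSO from 2.80 CPM for MRPL53 to 646 CPM for MRPS6. The kit captured the 3′ ends of transcripts, so 1 molecule gives 1 UMI whatever its length, and no correction for length was made.

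A few members carried a large part of the pool. MRPS6, which sits in the platform of the small subunit, was at 646 CPM in DMSO (643 to 650), 740.0 under RAC1i and 635 under Combo. MRPS34, a small subunit protein needed for stability of that subunit, was at 568 CPM in DMSO, 857 under RAC1i and 911 under Combo, so it was above MRPS6 in both treated libraries. MRPL20, which binds large subunit RNA, was at 462, 426 and 408 CPM in DMSO, RAC1i and Combo. MRPL51 was at 397, 592 and 568 CPM and MRPL43 at 327, 228 and 254 CPM in the same order. The 5 highest members held 24.2% of the pool in DMSO and 26.8% in RAC1i, and MRPL47 took the place of MRPL43 among them in both treated libraries. MRPS6 shares exon bases with SLC5A3 on the same strand, so part of its UMIs cannot be placed with certainty.

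**Figure D1:**
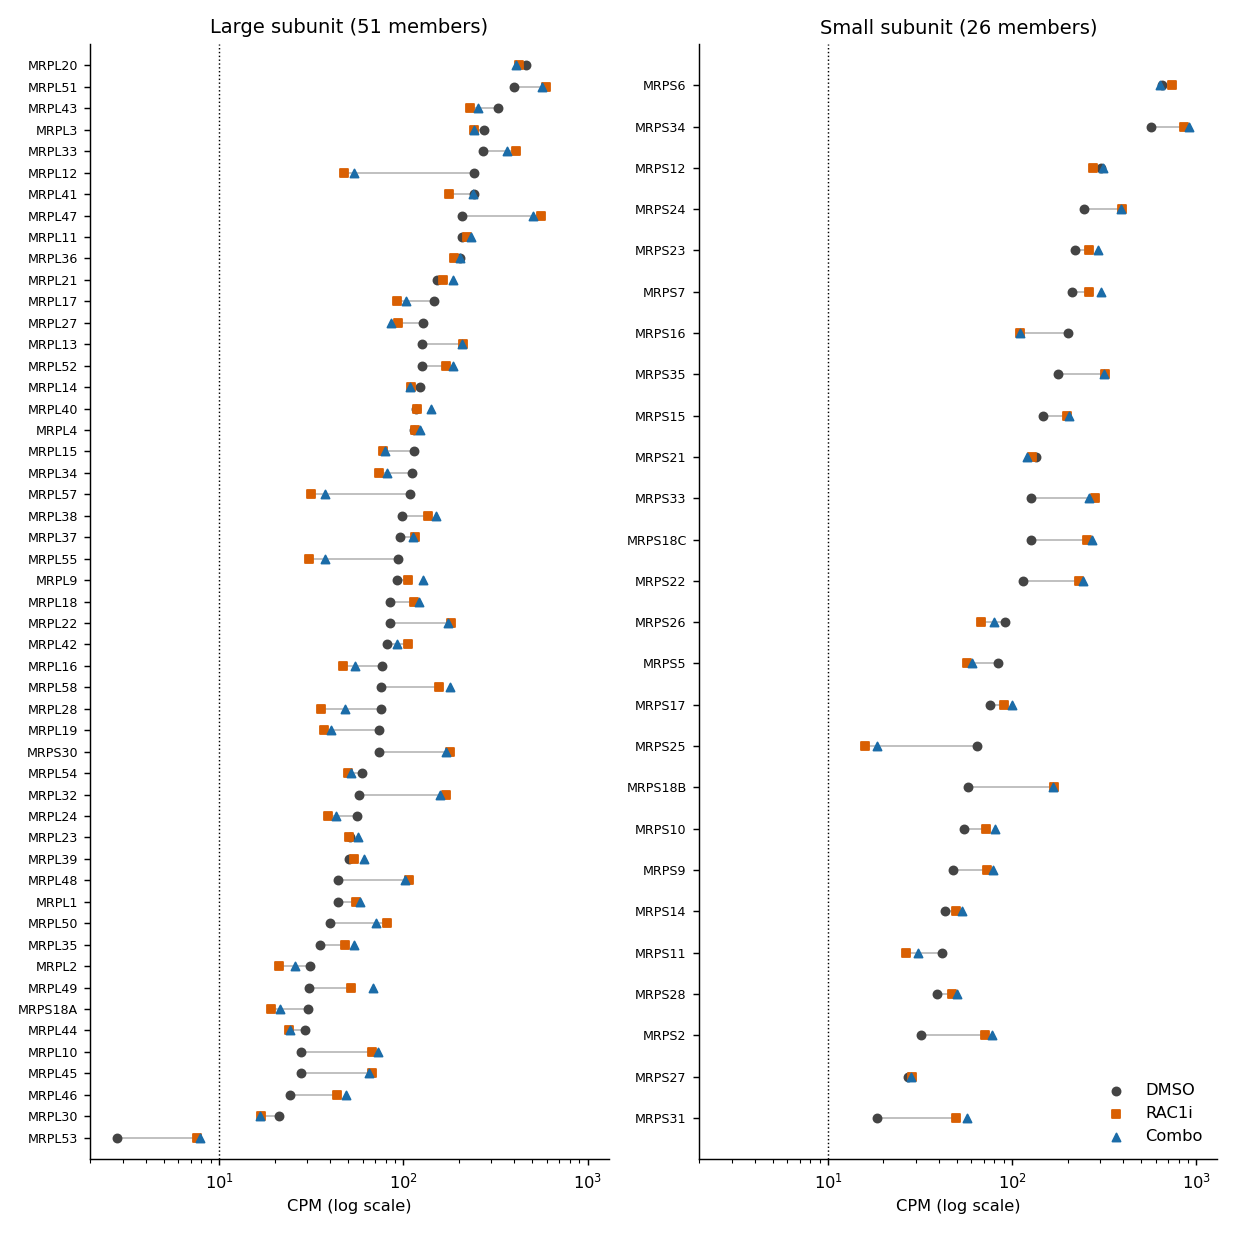
Level of each member of the large subunit (left) and of the small subunit (right) in CPM on a log axis, with DMSO as circles, RAC1i as squares and Combo as triangles, ordered by the level in DMSO. Grey lines join DMSO and RAC1i and the dotted line marks the minimum of 10 CPM; 95% counting intervals are narrower than the symbols except at the lowest levels. Combo lies close to RAC1i for nearly every member, while MRPL12, MRPL57, MRPL55 and MRPS25 stand far to the left of DMSO and MRPL32, MRPL47 and MRPS18B far to the right.

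Among the members, the small subunit took a larger part of the pool in the treated libraries. Summed small subunit members were at 3893 CPM in DMSO, 5129 under RAC1i and 5244 under Combo, and summed large subunit members at 5865, 6562 and 6724 CPM. The ratio of large to small subunit UMIs was therefore 1.507 in DMSO (1.502 to 1.511), 1.279 in RAC1i (1.276 to 1.282) and 1.282 in Combo (1.279 to 1.285). The ratio was also lower in both treated libraries with subunits taken from the letter of the symbol, at 1.40, 1.17 and 1.17 in DMSO, RAC1i and Combo, and without the 5 highest members of DMSO, at 1.75, 1.51 and 1.49. The symbol rule leaves out 5 subunits with other names, most of them of the small subunit. Their summed level went the other way, at 1461 CPM in DMSO, 1037 under RAC1i and 1141 under Combo. The ratio therefore describes the members only. With these subunits counted in, its fall from DMSO to the treated libraries would be smaller, by an amount that was not computed. It is not read as a result about whole subunits. With 1 library per condition, the spread of this ratio between cultures is unknown.

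In RAC1i over DMSO, 78 of the 81 members passed the minimum of 10 CPM in the higher library, and MRPL53, MRPS30-DT and MRPL23-AS1 did not. Of the 78, 32 were higher in RAC1i by at least 25%, beside 31.0% of all genes that passed the minimum, and 22 were lower by at least 20%, which is the same fold downwards, beside 45.7% of all genes. Higher and lower members are counted at these limits below unless another fold is given. At 1.5-fold, 23 members were higher beside 22.7% of all genes and 12 lower beside 36.9%. At 2-fold, 15 members were higher beside 13.1% of all genes, and 7 were lower beside 24.6%. The median log2 ratio of CPM plus 1 was 0.19 over the members and -0.20 over the 8778 genes that passed. The large subunit had a median of 0.06 over 50 members, with 20 higher and 16 lower, and the small subunit a median of 0.28 over 26 members, with 12 higher and 5 lower. Medians of these sizes depend on the scale: when each cell was given equal weight, the median over the members was -0.07 and that of the large subunit -0.16, while the small subunit stayed above 0 at 0.13, and with every cell thinned to 5000 UMIs the large subunit was at -0.10. With equal weight for each cell the balance also turned, with 24 members higher, beside 32.7% of all genes, and 29 lower, beside 44.6%. The members were therefore spread to both sides of no difference, with a standard deviation of 0.84 between members on the log2 scale beside 1.14 between all genes.

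The lowest ratio belonged to MRPL12, which forms the flexible stalk of the large subunit and has also been described as a partner of the mitochondrial RNA polymerase. It was at 242 CPM in DMSO, 47.7 under RAC1i and 54.1 under Combo, so that it was 5.08-fold lower in RAC1i than in DMSO, a ratio of 0.197 (0.193 to 0.201). MRPL12 was the sixth highest member of the large subunit in DMSO and lay among the lower ones in both treated libraries. MRPS25, a small subunit protein added in mitochondria, was at 64.4, 15.9 and 18.5 CPM in DMSO, RAC1i and Combo, a ratio of 0.247 in RAC1i over DMSO (0.238 to 0.256). MRPL57, a short large subunit protein without bacterial counterpart, was at 108, 31.5 and 37.7 CPM, a ratio of 0.292 (0.284 to 0.299). MRPL55, also of the large subunit, was at 93.9, 30.5 and 37.6 CPM, a ratio of 0.325 (0.316 to 0.334). All 4 were low in both treated libraries and slightly less so in Combo. MRPL28 followed at 75.4, 35.7 and 48.1 CPM and MRPL19 at 73.9, 36.9 and 40.3 CPM, both large subunit members that bind ribosomal RNA and that share exon bases with another gene on the same strand. MRPS16, of the small subunit, was 1.82-fold lower in RAC1i, at 201 CPM in DMSO and 110.5 in each treated library.

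The highest ratios came from both subunits. MRPL32, a large subunit protein that is processed by the m-AAA protease before it enters the ribosome, was at 57.6 CPM in DMSO, 169.7 under RAC1i and 158 under Combo, a ratio of 2.95 in RAC1i over DMSO (2.89 to 3.01). MRPS18B, of the small subunit, was at 57.8, 169 and 165.5 CPM in DMSO, RAC1i and Combo, a ratio of 2.92 (2.86 to 2.99). MRPL47, the counterpart of a bacterial protein beside the exit of the peptide tunnel, was at 209, 558 and 506 CPM, a ratio of 2.67 (2.64 to 2.70). All 3 stood higher in the order of members under both treatments than in DMSO. MRPS31 was at 18.5, 49.2 and 56.6 CPM, the lowest member of the small subunit in DMSO and no longer so in the treated libraries. MRPS30, which takes part in the large subunit in spite of its name, was at 73.7, 178 and 170.2 CPM. MRPL45, which lies at the tunnel exit and holds the ribosome to the inner membrane, was at 27.7, 67.3 and 64.8 CPM, and MRPL10, which carries the stalk that MRPL12 forms, was at 27.9, 67.4 and 73.0 CPM. The mRNAs for the base of the stalk and for the stalk protein thus differed in opposite directions between DMSO and RAC1i, with log2 ratios of 1.24 for MRPL10 and -2.32 for MRPL12. The proteins were not measured.

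Members were also divided by a fixed list into those with a bacterial counterpart and those added in mitochondria. The list counted MRPS28, as well as MRPS18A and MRPS18B, which are paralogs of MRPS18C, as added, and no other division was tried. The 45 members with a bacterial counterpart had a median log2 ratio of 0.01 in RAC1i over DMSO, with 15 higher and 15 lower (33.3% each), beside 31.0% and 45.7% of all genes. The share of higher members was thus near that of all genes. The 31 members added in mitochondria that passed the minimum had a median of 0.43, with 17 higher (54.8%) and 6 lower (19.4%). The difference between these lists was not tested. The order was the same within each subunit: medians were -0.11 for bacterial and 0.40 for added members of the large subunit, and 0.26 and 0.59 for those of the small subunit. The interquartile ranges overlapped, from -0.54 to 0.44 for bacterial members and from -0.11 to 1.01 for added ones.

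The 3 MRPS18 paralogs differed from each other. MRPS18A, the large subunit copy, was at 30.4, 19.1 and 21.3 CPM in DMSO, RAC1i and Combo, with a log2 ratio of -0.65 in RAC1i over DMSO. MRPS18B was at 1.53 on the same scale, and MRPS18C, which takes the site of the bacterial protein in the small subunit, at 1.00, with 127, 255 and 272 CPM. MRPL58, a peptidyl-tRNA hydrolase that was built into the large subunit, was at 75.5, 157 and 179 CPM. MRPS36, which is not a ribosomal subunit, was at 122, 135 and 131 CPM, a difference under 25% in both treated libraries.

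Of 4 pairs of members that overlap or start close to each other on opposite strands, 2 had opposite directions, 1 had the same direction and 1 had too few UMIs for a direction. MRPL46 and MRPS11 are transcribed away from each other on chromosome 15, with starts 63 bases apart (GRCh38, MRPL46 at chr15:88459477-88467390 on the minus strand and MRPS11 at chr15:88467453-88480776 on the plus strand). MRPL46, of the large subunit, was at 24.3, 43.6 and 48.8 CPM in DMSO, RAC1i and Combo, whereas MRPS11, of the small subunit, was at 41.4, 26.6 and 30.7 CPM. Their log2 ratios in RAC1i over DMSO were 0.82 and -0.62, so the gene that was lower in DMSO was the higher one in both treated libraries. On chromosome 5, MRPS30 and the noncoding MRPS30-DT start 170 bases apart on opposite strands. MRPS30 was higher in the treated libraries, while MRPS30-DT had 648 UMIs in DMSO (3.26 CPM), 274 in RAC1i (1.17 CPM) and 203 in Combo (0.954 CPM). On chromosome 1, the noncoding MRPL20-AS1 overlaps MRPL20 on the other strand, with 138 bases shared between the spans of the genes. MRPL20-AS1 was at 31.0 CPM in DMSO, 6.35 under RAC1i and 7.83 under Combo, 4.89-fold lower in RAC1i. MRPL20 was also lower, by much less, with a log2 ratio of -0.12. On chromosome 11, MRPL23-AS1, which overlaps MRPL23 by 1286 bases, had 1 UMI in RAC1i and 0 in the other libraries, so it was given no direction.

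Promoters were searched for letters that fit known factors, in the 300 bases from 250 before to 50 after the RefSeq start of each gene on GRCh38.p14, and 69 of the 77 subunit genes had such a promoter. YY1 is a zinc finger factor whose core AAGATGGCG often lies just past the start of genes for mitochondrial and ribosomal proteins, where its ATG can serve as the start codon. This core, on either strand, was in 13 of the 69 promoters (18.8%), beside 4.92% of the 7074 promoters of genes that reached 10 CPM and 1.85% of all 27305 promoters. The motif was picked with values of the members already known. In 11 of the 13 genes it lay in the direction of the gene, and in 9 its ATG was at an annotated start codon. The windows below show the core in capitals with 10 bases on each side, 5′ to 3′ in the direction of the gene, for 3 members with high ratios, 1 of the divergent pair, and MRPS18A, which has the core and a ratio below 1. MRPS11, the partner in that pair, was counted as without the core, because none lay in the 300 bases around its own RefSeq start. By its GENCODE start, 63 bases from that of MRPL46, the MRPL46 core would lie inside such a window. MRPS11, with a log2 ratio of -0.62 in RAC1i over DMSO, would then count as a member with the core. The comparison by core thus depends on the start chosen. The last shows MRPL32, the member with the highest ratio, where the core is on the other strand and reads as its reverse complement. There the core starts 223 bases before the start of MRPL32, and its window overlaps an annotated exon outside that gene.
MRPS18B (chr6:30617853-30617881, plus strand): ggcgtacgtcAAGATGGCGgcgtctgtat
MRPS30 (chr5:44808950-44808978, plus strand): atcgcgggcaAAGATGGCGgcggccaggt
MRPL50 (chr9:101398577-101398605, minus strand): gatctcatcgAAGATGGCGgcgcgatctg
MRPL46 (chr15:88467362-88467390, minus strand): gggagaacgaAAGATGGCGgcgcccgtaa
MRPS18A (chr6:43687764-43687792, minus strand): taggtttttgAAGATGGCGgccctcaagg
MRPL32 (chr7:42932143-42932171, plus strand): acccgcgctcCGCCATCTTtacccgaaga

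Members with the YY1 core lay higher in the treated libraries than those without. Their median log2 ratio in RAC1i over DMSO was 0.70 over 13 members, with an interquartile range from 0.39 to 1.08, and 0.08 over 56 members without it, from -0.46 to 0.59. Of the 13, 11 were higher in RAC1i by at least 25% and 5 by at least 2-fold, beside 49.3% and 19.6% of the 347 genes that had the core and 29.7% and 12.3% of the 6697 that did not. The other two were MRPS18A at -0.65 and MRPL36, a short protein of the large subunit, at -0.11. In Combo over DMSO the medians were 0.67 and 0.13. The core went with a higher ratio over all genes too, with a median of 0.30 over genes that had it and -0.23 over those that did not, so the difference was not particular to the members. YY1 mRNA itself was at 209 CPM in DMSO, 368 under RAC1i and 354 under Combo. The core for ETS factors such as GABP, CCGGAAGT, was in 15.9% of member promoters and 10.7% of those of genes that reached 10 CPM. For the palindromic core of NRF1, a regulator of genes for respiration, the shares were 11.6% and 13.5%, for the E-box CACGTG 8.70% and 10.8%, and for TATAAA 2.90% and 4.89%, all on both strands. YY1 was not the only motif that went with higher members. The 6 members with the E-box had a median log2 ratio of 0.88 in RAC1i over DMSO, against 0.19 over 63 without it, and 1.07 against 0.27 in Combo over DMSO. Over all genes the E-box medians in RAC1i were -0.17 with and -0.20 without it. The 11 members with the ETS core had 0.46, against 0.19 over 58 without it, and over all genes the medians were 0.10 and -0.24. The 8 members with the NRF1 core had -0.13, against 0.26 over 61, and the 2 with TATAAA had 0.10, against 0.20 over 67. Over all genes the order was the other way for both, at -0.11 with and -0.20 without the NRF1 core, and -0.01 and -0.20 for TATAAA. A match in letters is not evidence of binding.

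**Figure D2:**
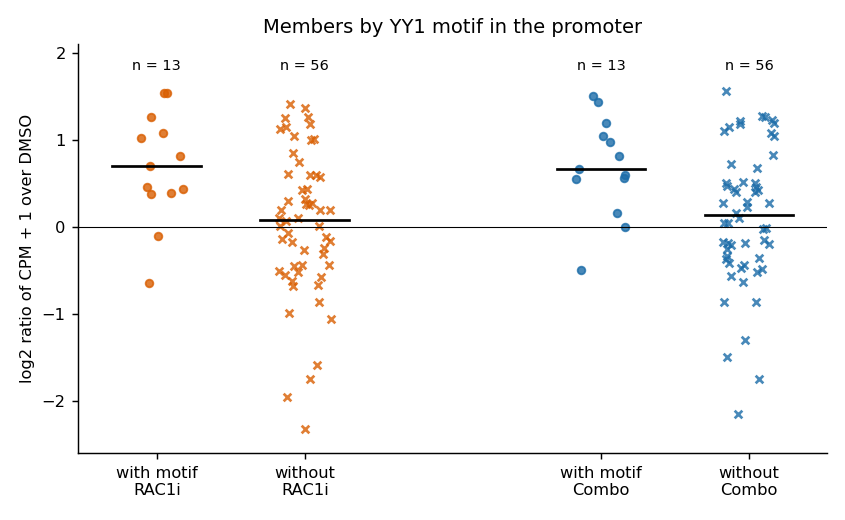
Log2 ratio of CPM plus 1 over DMSO for members with (13) and without (56) the YY1 core in the promoter, for RAC1i (left pair) and Combo (right pair). Each point is 1 member and each bar the median. Members with the core have medians of 0.70 and 0.67, those without 0.08 and 0.13, and the ranges overlap.

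Ratios also went with the base composition of the transcript. Over the 76 subunit members that passed the minimum, Pearson's r between the GC share of the canonical transcript and the log2 ratio was -0.35 in RAC1i over DMSO (Spearman's rho -0.33), beside -0.13 over 8765 genes. It was further from 0, at -0.47 (Spearman's rho -0.40), over 76 nuclear genes of oxidative phosphorylation, and -0.10 over 79 cytosolic ribosomal proteins. These are correlations across genes of the same pair of libraries, given as a description. The 25 members of lowest GC, from 35.01% to 44.6%, had a median log2 ratio of 0.44, the middle 25 had 0.10, and the 26 of highest GC, from 51.9% to 66.7%, had -0.15. Over all genes split at the same GC limits, the medians were -0.09, -0.12 and -0.41 from low to high GC. MRPL12, at 64.6% GC, MRPL55, at 63.7%, and MRPL47, at 37.8%, followed that order, but MRPS34, at 64.6% GC, was 1.51-fold higher in RAC1i. In Combo over DMSO r was -0.29 over the members and -0.09 over 8732 genes. In Combo over RAC1i the sign was the other way, with r = 0.45 over the members and 0.24 over 7433 genes. The RAC1i library is divided by DMSO in the first comparison and is the divisor in the last, so these signs are not independent.

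The Combo library was compared with DMSO and with RAC1i, and both of the treated libraries share the DMSO library as control. In Combo over DMSO, 36 of 78 members were higher by at least 25%, beside 30.2% of all genes, and 19 were lower, beside 44.8%. At 1.5-fold, 24 were higher beside 21.3% and 8 lower beside 35.4%. At 2-fold, 16 were higher beside 11.8% of all genes and 5 lower beside 22.8%. The median log2 ratio was 0.27 over the members, 0.16 over the large subunit and 0.45 over the small subunit, with -0.17 over all 8745 genes. With equal weight for each cell the median over the members was close to 0 and that of the large subunit was -0.09, with 28 members higher, beside 31.9% of all genes, and 27 lower, beside 43.7%. MRPS31 had the highest ratio of Combo over DMSO at 3.06 (2.95 to 3.17), followed by MRPS18B at 2.86 and MRPL32 at 2.74. MRPL12 had the lowest at 0.223 (0.219 to 0.228).

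Adding EZH2i to RAC1i went with small differences in the members. Of 77 members that passed the minimum in Combo over RAC1i, 3 were higher by at least 25%, beside 4.66% of all genes, and 0 were lower by at least 20%, beside 5.08%. At 1.5-fold, 0 members were higher beside 0.175% of all genes and 0 lower beside 0.484%. No test was possible with 1 library of each. The median log2 ratio was 0.09 over the members and 0.01 over 7443 genes, with 0.11 for the large and 0.09 for the small subunit. MRPL41, a large subunit protein, was at 240.4 CPM in DMSO, 177 under RAC1i and 239 under Combo, a ratio of 1.35 in Combo over RAC1i (1.33 to 1.36), so that its level in Combo was close to that in DMSO. MRPL28 had a ratio of 1.35 (1.31 to 1.39) and MRPL49, also of the large subunit, of 1.32 (1.29 to 1.36), at 30.5, 51.9 and 68.7 CPM in DMSO, RAC1i and Combo. MRPL49 moved further from DMSO in Combo, whereas MRPL28 moved back towards it. MRPL55 and MRPL2 followed with ratios of 1.23 each. At the other end, MRPS6 was 1.17-fold lower in Combo than in RAC1i and MRPL42 was 1.16-fold lower, at 81.8, 106 and 91.7 CPM, while MRPL50, MRPL33 and MRPL47 were 1.15-fold, 1.11-fold and 1.10-fold lower. The other 74 of the 77 members lay within these limits.

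For 3 members with the strongest ratios, the shares of single cells with a UMI had the same order as the sums. These members were picked by sums of the same UMIs, so the shared order is no separate support. UMIs of each cell were drawn down at random to 5000, and shallower cells (806 of DMSO, 1015 of RAC1i and 885 of Combo) were set aside. Among these thinned cells, MRPL12 had a UMI in 66.6% of cells in DMSO (65.5% to 67.7%), 18.9% under RAC1i and 22.6% under Combo. Without thinning the shares were 91.8%, 48.7% and 55.2%. MRPL32 had a UMI in 24.8% of thinned cells in DMSO, 54.1% under RAC1i and 51.6% under Combo, and in 68.1%, 83.6% and 81.6% without thinning. MRPS18B was in 25.3%, 51.8% and 49.6% of thinned cells, and in 67.9%, 79.3% and 78.7% without thinning. In a culture of 1 cell line there was no cell type that lacks these genes, so the part that free RNA gives to these shares was not measured. MRPS6 went the other way in RAC1i, with a higher CPM than in DMSO but a smaller share of cells. It was in 93.0% of thinned cells in DMSO, 85.0% under RAC1i and 81.3% under Combo (97.8%, 89.0% and 86.2% without thinning). MRPS34, higher in CPM in both treated libraries, was in 93.6%, 94.1% and 95.4% of thinned cells, and in 98.4%, 95.2% and 95.3% without thinning.

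A thinned cell held a median of 50 UMIs of members in DMSO, 56 under RAC1i and 57 under Combo, from a median of 31, 32 and 32 different members. The median ratio of large to small subunit UMIs in a cell was 1.53 in DMSO, 1.32 under RAC1i and 1.33 under Combo, close to the ratios of the sums. Across thinned cells, large and small subunit UMIs correlated with r = 0.46 in DMSO over 6725 cells, 0.55 in RAC1i over 9200 cells and 0.57 in Combo over 7354 cells. Members correlated with nuclear genes of oxidative phosphorylation at 0.68, 0.37 and 0.40 in the same order. Against cytosolic ribosomal proteins the correlation was 0.35 in DMSO but -0.14 under RAC1i and -0.17 under Combo. Cells of a library share 1 culture and a fixed total of 5000 UMIs, and the correlations are descriptions.

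The level of the members went with the depth of the cell, in opposite ways with and without RAC1i. In DMSO the summed level was 11190 CPM in the tercile of cells with the fewest UMIs, 9872 in the middle tercile and 9693 in the deepest tercile. In RAC1i it was 9122, 11241 and 12680 CPM, and in Combo 8740, 11533 and 13035 CPM. Nuclear genes of oxidative phosphorylation crossed in a like way, with 39333 CPM in the shallow and 30859 in the deep tercile of DMSO, 32986 and 35358 in RAC1i, and 33967 and 37785 in Combo, so the crossing was not particular to the members. The summed level of the members was thus lower in RAC1i than in DMSO among shallow cells and higher among the others. The median log2 ratio of RAC1i over DMSO was -0.41 in the shallow tercile, 0.11 in the middle and 0.35 in the deep tercile, while that of all genes was -0.16, -0.23 and -0.20. In the middle tercile the median was -0.09 over the large subunit and 0.21 over the small subunit. In the shallow tercile 14 of 78 members were higher, beside 34.9% of all genes in that tercile, and 42 lower, beside 45.0%. In the deep tercile 42 of 78 were higher, beside 31.0% of all genes, and 19 lower, beside 45.7%. The split by depth was made after values of the members were known. Mitochondrial share moved with depth, in opposite ways in DMSO and RAC1i. In DMSO, cells of the highest tercile by that share had a median of 26294 UMIs against 9008 in the lowest. In RAC1i the medians were 11070 against 26444. The part of mitochondrial share in the contrasts by depth was not tested. MRPS34, for example, was at 628, 554 and 564 CPM in the low, middle and deep terciles of DMSO, and at 586, 787 and 947 CPM in those of RAC1i.

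Among the members, the ratio of large to small subunit kept its order at every depth. It was 1.58, 1.51 and 1.49 in the low, middle and deep terciles of DMSO, 1.43, 1.29 and 1.252 in RAC1i, and 1.44, 1.30 and 1.26 in Combo. More of the lower than of the higher members kept their direction at every depth. Of the 22 lower members, 19 passed the limit in all 3 terciles and 22 had a ratio below 1 in each, beside 82.7% and 95.04% of all lower genes. Of the 32 higher members, 14 passed the limit in all 3 terciles and 24 had a ratio above 1 in each, beside 76.6% and 94.5% of all higher genes. MRPL12 was at 243, 240 and 244 CPM in the low, middle and deep terciles of DMSO and at 50.8, 42.2 and 50.0 CPM in those of RAC1i, so its difference was as large among shallow as among deep cells.

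**Figure D3:**
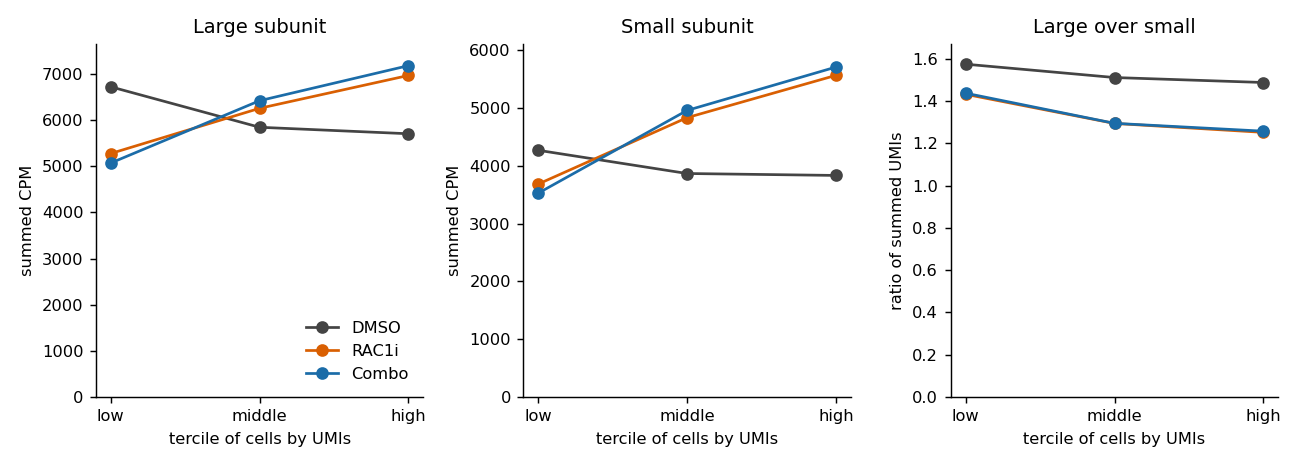
Summed CPM of the large subunit (left), of the small subunit (middle) and the ratio of large to small subunit UMIs (right) in terciles of the cells of each library by UMIs per cell, with each axis starting at 0. In the left and middle panels DMSO goes down from low to high depth, while RAC1i and Combo go up and cross it. In the right panel the ratio goes down with depth in every library. It is lower in RAC1i and Combo than in DMSO in every tercile, and it covers the members only.

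Within the treated libraries, the members that were lower than in DMSO and those that were higher went with the mitochondrial share of a cell in opposite ways. In DMSO, the median level in the tercile of cells with the highest mitochondrial share over that in the lowest tercile was 0.797 for the 32 members higher in RAC1i and 0.775 for the 22 lower members, and 32 of 32 and 21 of 22 were below 1, beside 42.2% of all higher and 39.6% of all lower genes. In RAC1i, the median was 0.765 for the higher members, with 30 of 32 below 1, and 1.23 for the lower members, with 17 of 22 above 1. All genes split the same way in RAC1i, with 70.7% of the higher genes below 1 and 90.6% of the lower genes above 1, so this was not particular to the members. In Combo the medians were 0.732 and 1.11, with 29 of 32 below 1 and 14 of 22 above 1, beside 69.8% and 82.5% of all genes. MRPL12 was at 36.5, 44.2 and 74.5 CPM in the low, middle and high terciles of RAC1i by mitochondrial share, and at 286, 243 and 213 CPM in those of DMSO. MRPS18B was at 194, 174 and 114 CPM in those of RAC1i, and at 64.6, 57.8 and 53.3 CPM in DMSO. The treated cells of high mitochondrial share were thus nearer to DMSO for both genes, although even there MRPL12 stayed below the DMSO level and MRPS18B above it. The same RAC1i library chose the members and gave these contrasts. Depth moved with the split: cells of the high tercile had a median of 11070 UMIs in RAC1i against 26444 in the low tercile, and of 26294 against 9008 in DMSO, and the part of depth in these contrasts was not tested.

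**Figure D4:**
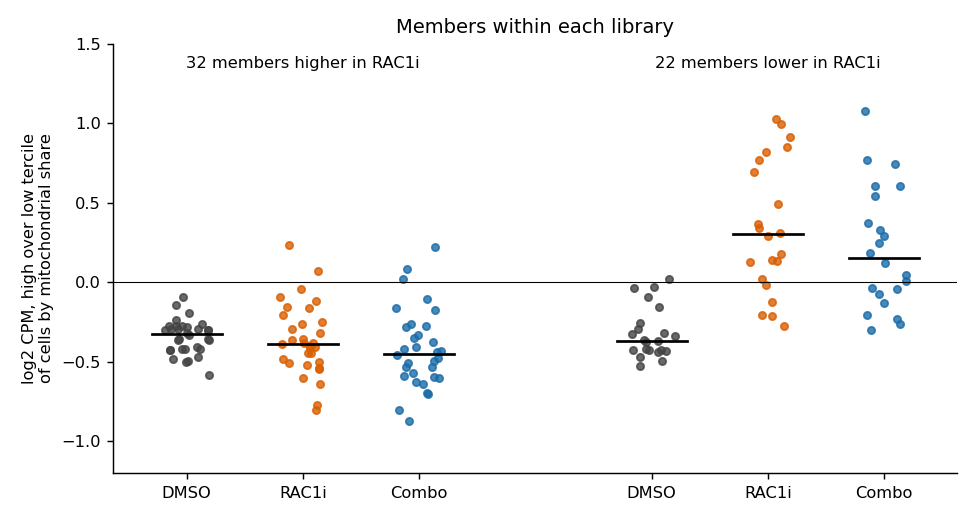
Log2 of the CPM in the tercile of cells with the highest mitochondrial share over the CPM in the lowest tercile, within each library, for the 32 members higher in RAC1i than DMSO (left) and the 22 lower members (right). Each point is 1 member and each bar the median. All groups lie mostly below 0 except the lower members within RAC1i and Combo, where 17 and 14 of 22 lie above 0.

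MRPS6 differed most between shallow and deep cells of the treated libraries. In terciles of cells by UMIs it was at 649, 645 and 646 CPM in DMSO, at 389, 680.3 and 841 CPM in RAC1i, and at 281, 587 and 725 CPM in Combo. The deep tercile was thus 2.16-fold above the shallow tercile under RAC1i and 2.58-fold under Combo, the widest contrast of any member of at least 10 CPM in DMSO in both, and level in DMSO. The study lists MRPS6 among the leading genes of 1 of its clusters, so cells were also split by 7 other leading genes of that cluster, SLPI, TM4SF1, CLU, NMU, UPK1B, GPRC5A and LRPAP1. This list was chosen by the study on these samples and is not independent of them. MRPS6 was at 577, 607 and 732 CPM in the low, middle and high terciles of DMSO by those genes, at 529, 703 and 932 CPM in RAC1i, and at 466, 601 and 792 CPM in Combo. MRPL12 went the same way in RAC1i, with 27.8, 43.3 and 66.7 CPM, and all 22 of the lower members were higher in the high tercile than in the low tercile of RAC1i, beside 80.9% of all lower genes. Depth moved with this split too: cells of the high tercile had a median of 28618 UMIs in DMSO against 12209 in the low tercile, of 24251 against 16557 in RAC1i and of 28093 against 18509 in Combo. The part of depth in these contrasts was not tested.

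Cells were also split by proliferation. In terciles of cells by the summed level of 15 proliferation genes, the members were at 9492, 9904 and 10286 CPM in DMSO, 11643, 11851 and 11970 CPM in RAC1i and 11956, 12048 and 12282 CPM in Combo. MRPL18, of the large subunit, was at 69.7, 85.1 and 97.9 CPM in those terciles of DMSO, a contrast of 1.41-fold. In every tercile by proliferation, all 32 higher members had a ratio of RAC1i over DMSO above 1 and all 22 lower members a ratio below 1, beside 99.9% of all higher and 98.6% of all lower genes, so this was not particular to the members.

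Other genes of mitochondrial translation are described by list, to be read beside the 31.0% of all genes that were higher and the 45.7% that were lower in RAC1i than in DMSO. Of the 5 subunits with other names, AURKAIP1 of the small subunit was at 850.1, 397 and 478 CPM in DMSO, RAC1i and Combo, 2.14-fold lower in RAC1i, and CHCHD1 was at 203, 137 and 149 CPM. PTCD3, also of the small subunit, was at 30.5, 48.7 and 43.8 CPM. DAP3 and GADD45GIP1 differed by less than 25% between RAC1i and DMSO. In DMSO the level of AURKAIP1 was above that of every member. Of 21 assembly factors, 7 were higher and 7 lower (33.3% each), with a median log2 ratio of 0.03, so the share of higher genes was near that of all genes. MRM2, which methylates the large ribosomal RNA, was at 31.7 CPM in DMSO and 97.2 in RAC1i, and RBFA, which matures the small subunit RNA, at 20.1 and 3.62 CPM.

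Of 18 translation factors, 3 were higher (16.7%) and 8 lower (44.4%) in RAC1i, with a median of -0.13 beside -0.20 over all genes, so the share of lower genes was near that of all genes. MRRF, which recycles the ribosome after termination, was at 21.9 CPM in DMSO and 69.3 in RAC1i, and MTFMT, which formylates the initiator tRNA, at 15.0 and 4.35 CPM. Of 11 mitochondrial tRNA synthetases, 3 were higher (27.3%) and 5 lower (45.5%), with a median of -0.18, also near all genes. SARS2, for serine, was at 23.2 CPM in DMSO and 4.83 in RAC1i, and FARS2, for phenylalanine, at 6.43 and 11.4 CPM. The 13 mRNAs that these ribosomes translate were all lower, from 61495 CPM summed in DMSO to 18053 under RAC1i and 16941 under Combo, with a median log2 ratio of -1.68 in RAC1i over DMSO. Among them MT-CO2 was at 11349 CPM in DMSO and 4518 in RAC1i, and MT-CO3 at 12396 and 2553 CPM. Of 10 regulators of mitochondrial biogenesis, 6 were higher and 3 lower (30.0%). POLRMT, the mitochondrial RNA polymerase, was at 21.7 CPM in DMSO, 11.4 under RAC1i and 12.5 under Combo, while its transcription factors TFB2M and TFAM were at 26.2 and 119 CPM in DMSO and at 84.5 and 273 CPM in RAC1i.

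Beside these lists, the TIMM and TOMM genes of protein import had 15 of 23 higher (65.2%) and 1 lower (4.35%) in RAC1i over DMSO, with a median log2 ratio of 0.39. TIMM23B was at 6.47 CPM in DMSO and 23.2 in RAC1i, and TIMM10B at 41.0 and 27.3 CPM. Nuclear genes of oxidative phosphorylation had 20 of 76 higher (26.3%) and 23 lower (30.3%), with a median of 0.05. NDUFC1 of complex I was at 159 CPM in DMSO and 308 in RAC1i, and ATP5F1D of the ATP synthase at 343 and 84.9 CPM. Cytosolic ribosomal proteins had 28 of 79 higher (35.4%) and 8 lower (10.1%), with a median of 0.14 and a standard deviation of 0.50 between genes, against 0.84 for the members. RPS26 was at 1402 CPM in DMSO and 3532 in RAC1i, and RPL39L, a copy of RPL39 whose UMIs may be hard to place, at 112 and 39.7 CPM.

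**Figure D5:**
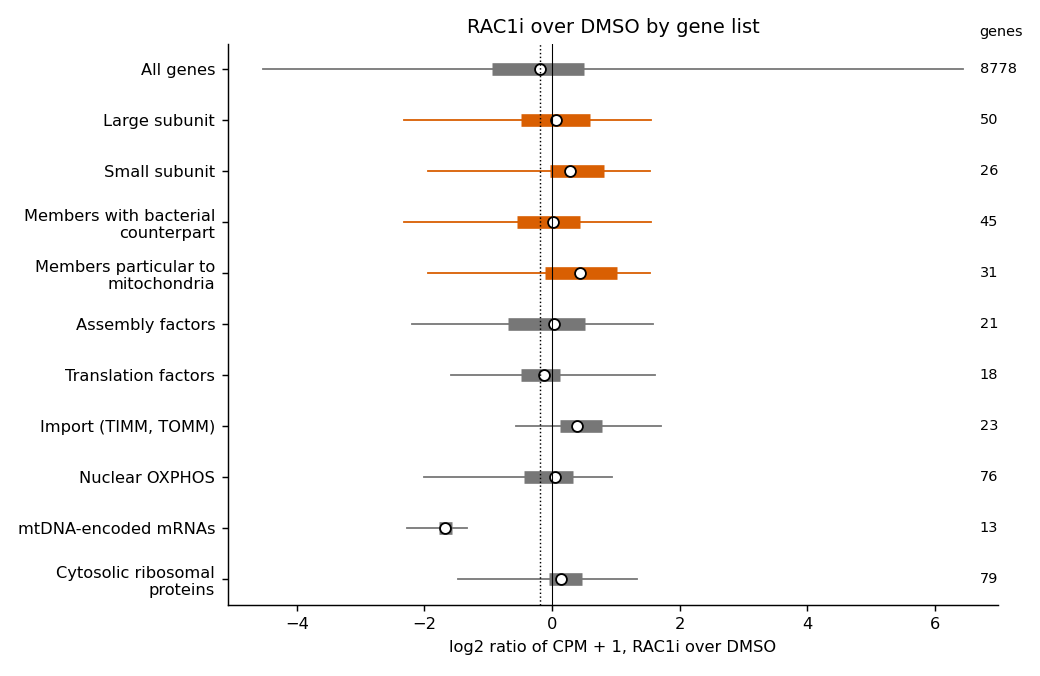
Log2 ratio of CPM plus 1 in RAC1i over DMSO by gene list; circles are medians, thick bars the interquartile range, thin lines the lowest and highest gene, and numbers at the right the genes that reached 10 CPM in either library. The dotted line marks the median of all genes (-0.20). Lists of members (orange) have medians from 0.01 to 0.43, while the 13 mRNAs encoded in mitochondrial DNA lie apart at -1.68.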

How the data were processed

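Counts of UMIs per gene and cell were used as the authors deposited them, as made with Cell Ranger 4.0.0 on GRCh38 from Chromium 3′ libraries, without normalization. The limits of the study's methods were used for cells: a complexity score above 0.8, mitochondrial UMIs of 20% or less, and more than 1000 genes. No doublets were removed. For each library, UMIs of the kept cells were added up per gene and scaled to CPM, with exact Poisson, conditional (ratio) and Clopper-Pearson (share) intervals at 95%. Log2 ratios used CPM plus 1 and only genes that reached 10 CPM in either library. With 1 library per condition no test was made, and counts of members higher by at least 25% or lower by at least 20% are read beside all genes. Members and lists were chosen with earlier results of these data known. Genes were placed with GENCODE 44, which held 36366 identifiers and all 81 members, and promoters came from RefSeq.

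Genes named were the 5 largest rises and 5 largest falls per comparison, the 5 highest members in DMSO, members that are no subunit, MRPS18A, MRPS18B, MRPS18C, MRPS30, MRPS36, MRPL58, MRPS6, MRPL12, MRPL41, MRPL45, RAC1, EZH2 and, for each other list, its largest rise and fall. MRPL10, MRPL18, MRPL19, MRPL28, MRPL36, MRPL46, MRPS11, MRPS16, the subunits with other names, TFAM and YY1 were added after their values were seen. Alternatives were other limits on cells, TMM (edgeR 4.0.16), size factors (DESeq2 1.42.0), a total without mitochondrial genes, a mean over cells, thinning to 5000 UMIs, no minimum, subunits by symbol letter, and 1.5-fold. Calculations used Python 3.11.15, NumPy 2.4.6, SciPy 1.17.1, pandas 2.3.3 and R 4.3.3, and were tested on simulated data.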

Additional observations from a re-analysis of the deposited data

How the results depend on the processing

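All values describe 1 library per condition. There was no replicate to leave out, and the spread between cultures is unknown. No paired analysis was possible because each condition was 1 library. Members that passed the limits of 25% and 20% and were followed singly kept their direction under the other limits on cells, the other scalings, the mean over cells and thinning. MRPL18, MRPL19, MRPL46, MRPS11 and MRPS16 are named here but were not followed in this way.

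The medians over all members and over the large subunit lie near 0 and depend on the scale. With the mean over cells, the median log2 ratio in RAC1i over DMSO was -0.071 for all members, -0.16 for the large and 0.13 for the small subunit, and in Combo over DMSO -0.0036, -0.095 and 0.23, with 24 members higher and 29 lower in RAC1i (beside 32.7% and 44.6% of all genes) and 28 and 27 in Combo (31.9% and 43.7%). With thinning to 5000 UMIs the values in that order were 0.063, -0.10 and 0.22 for RAC1i and 0.11, 0.037 and 0.32 for Combo. With a total without mitochondrial genes they were 0.13, -0.0090 and 0.22, and 0.21, 0.10 and 0.38. TMM gave 0.27, 0.13 and 0.36, and 0.36, 0.25 and 0.53, with 41 members higher and 16 lower in Combo, beside 34.4% and 40.7% of all genes. DESeq2 size factors gave 0.31, 0.17 and 0.40, and 0.39, 0.28 and 0.56, with 41 higher and 15 lower in Combo, beside 35.5% and 39.5%. With every deposited barcode they were 0.22, 0.089 and 0.31 in RAC1i, and 0.20 for the large and 0.48 for the small subunit in Combo. The members' median minus that of all genes (-0.20 in RAC1i over DMSO) was 0.39 as reported, and fell to 0.27 with thinning, 0.20 with no minimum and 0.099 with the mean over cells, where all genes had -0.17. For the large subunit it was 0.25, and 0.10, 0.11 and 0.0068 under these settings. In Combo over DMSO it was 0.44 for the members and 0.15 with the mean over cells. A mitochondrial limit of 10% gave 0.42 for the small subunit in Combo over DMSO, no minimum gave 0.10 for the large subunit in RAC1i over DMSO, and assignment by symbol letter gave 0.26 (RAC1i) and 0.42 (Combo) for the small subunit. In Combo over RAC1i, the mean over cells gave 0.072, 0.078 and 0.065, and thinning 0.071 for all members and 0.073 for the large subunit. The weight that shallow cells get changes by construction in the mean over cells; for the other settings the cause was not tested.

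At 1.5-fold, 12 members were lower than in DMSO for RAC1i and 8 for Combo, and 0 were higher in Combo than in RAC1i, beside 36.9%, 35.4% and 0.175% of all genes. The large-to-small ratio of the members was 1.40, 1.17 and 1.17 in DMSO, RAC1i and Combo by symbol letter, and 1.75, 1.51 and 1.49 without the 5 highest members.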
